A study of Caenorhabditis elegans with 8 samples.

Results

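The 42 rows described here carry the names of genes for proteins of the large subunit of the cytosolic ribosome (the rpl family) in Caenorhabditis elegans, among them rpl-17, the gene whose promoter drives the redox sensor of the strain. They were taken from a list of sequence names of this family, chosen with earlier results of these data known, and are 42 of the 45461 rows of a table of read counts. RNA came from whole larvae at the L2 stage, 4 biological replicates labelled oxidized and 4 labelled reduced, with about 10000 worms in each replicate. Both groups were N2 worms with the same insertion, jrIs2[Prpl-17::Grx1-roGFP2], which makes a green fluorescent protein fused to a glutaredoxin so that its fluorescence follows the redox state of glutathione, and no library came from worms without it. The worms hatched from age-synchronized eggs and grew at 20 °C on live E. coli OP50. The replicates are numbered 1, 2, 3 and 5. In replicate 5 one label (the source name) exchanges the redox states that the other labels give, and the groups used here follow the other labels. The titles read Low for libraries labelled oxidized and High for libraries labelled reduced. In replicates 3 and 5 they also read R5 for the oxidized and R4 for the reduced library, marks that are not explained and cannot be told apart from the group there. How worms were assigned to a redox state, and in which tissues the promoter is active, is not stated in the sources used here.

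The cytosolic ribosome has a small subunit, which reads the messenger RNA, and a large subunit, which joins the amino acids at a catalytic centre made of RNA and passes the new chain out through an exit tunnel. The proteins of the large subunit bind that RNA, brace it, line the tunnel and form the contacts with the small subunit and with the factors of translation. They are needed in equal numbers, and in yeast and mammals their genes are known to be expressed together and to take a large part of the messenger RNA of growing cells.

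The counts summed to between 635990 (oxidized replicate 3) and 1089259 (oxidized replicate 1) per library. A floor of 3 counts in a library corresponded to 2.8 to 4.84 CPM, where CPM are counts scaled to library size (with the TMM factor of each library). Intervals and floors cover counting error only. Vitellogenin rows, of genes used by the adult intestine, held 2 counts in all 8 libraries, and major sperm protein rows held 64. The library kit keeps the strand of the RNA, but the strand setting of the counting is not stated in those sources. Rows of protein-coding genes held 82.1% of counts and rows of non-coding genes of the class ncRNA 13.4%, while the 12 protein-coding rows of the mitochondrial genome together held 190 counts (0.00297%). Which strand's reads a row holds was not settled, so the text speaks of rows and not of transcripts.

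The large-subunit rows held 105582 of 6407344 counts (1.65%). Of the 42 rows, 41 had counts in every library and passed the filter on low counts. The row of rpl-16 (M01F1.2, chromosome III, 3502841 to 3503604 on the minus strand), the counterpart of human RPL13A, held 0 counts in all 8 libraries. All coordinates are from the Ensembl annotation of WBcel235. The genes lie on all 6 chromosomes, 13 on I, 7 on II, 8 on III, 7 on IV, 5 on V and 2 on X.

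The share of counts in these rows differed more between libraries of one group than between the groups. It was 2.44% in oxidized replicate 1, 0.875% in replicate 2, 1.55% in replicate 3 and 0.949% in replicate 5, against 1.29%, 3.03%, 1.5% and 0.954% in reduced replicates 1, 2, 3 and 5. Oxidized replicate 1 and reduced replicate 2 were the 2 highest, and the groups overlapped. The 95% Wilson intervals from counting were narrow, for instance 2.41% to 2.47% in oxidized replicate 1 and 2.99% to 3.06% in reduced replicate 2. The means were 1.45% ± 0.724 in oxidized and 1.69% ± 0.918 in reduced worms (SD, n = 4 each), a difference smaller than either SD. The highest library exceeded the lowest 3.46-fold. In bulk larvae, fewer cells that use these genes and less of their RNA per cell cannot be told apart. The cause of the differences between libraries, biological or technical, was not tested.

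**Figure D1:**
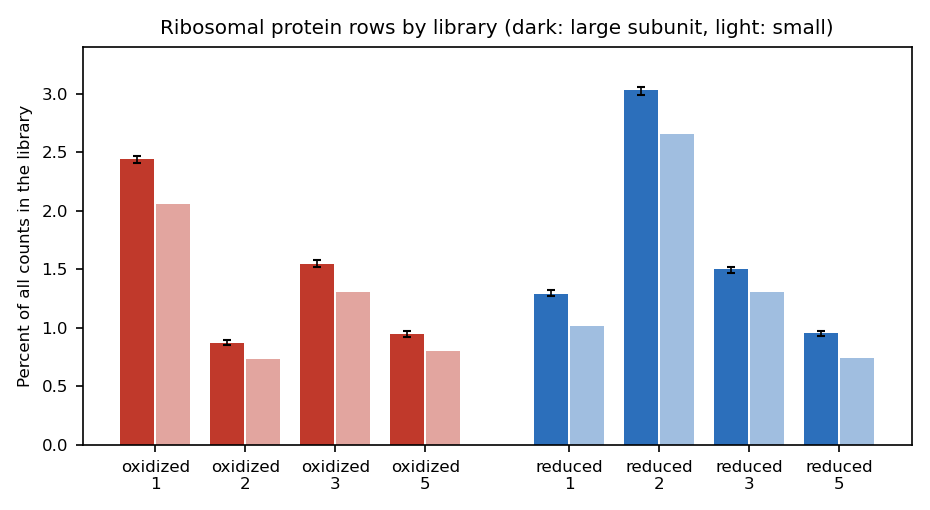
Percent of all counts in each library (vertical axis) held by large-subunit rows (dark bars, with 95% Wilson intervals) and small-subunit rows (light bars), oxidized libraries at left in red and reduced libraries at right in blue. Oxidized replicate 1 (2.44% and 2.06%) and reduced replicate 2 (3.03% and 2.66%) stand above the other 6 libraries.

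The small subunit followed the same libraries. Rows of its proteins (rps symbols, 31 rows, all tested) took 2.06%, 0.739%, 1.31% and 0.8% of counts in oxidized replicates 1, 2, 3 and 5, against 1.02%, 2.66%, 1.31% and 0.74% in the reduced ones. The count ratio of large-subunit to small-subunit rows was 1.18 ± 0.00297 in oxidized and 1.21 ± 0.0797 in reduced worms (SD, n = 4 each). Over all libraries that ratio spanned 1.13-fold, while the share of large-subunit rows spanned 3.46-fold. It was highest in reduced replicates 5 (1.29) and 1 (1.27) and lowest in reduced replicate 2 (1.14).

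Set against each other by replicate number, the pairs of libraries went different ways. In pair 1 the share in oxidized worms was 1.89 times that in reduced worms, and 36 of 41 rows had a higher CPM in the oxidized library, with a median log2 difference of 0.95. In pair 2 the share in oxidized worms was 0.289 times that in reduced worms, and 0 of 41 rows were higher in the oxidized library (median −1.63). In pairs 3 and 5 the ratios were 1.03 and 0.995, with 22 and 17 of 41 rows higher in the oxidized library (medians 0.03 and −0.14). Over all 2315 tested rows of the table the medians of the pairs lay between −0.00 and 0.04. Pairs 1 and 2 share the date June28 in their titles, where the oxidized library was the high one in pair 1 and the reduced library in pair 2. The dates of pairs 3 (July7) and 5 (August6) hold 1 pair each.

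No large-subunit row passed the test for a difference between oxidized and reduced worms. Of 2315 rows of the table tested by edgeR's quasi-likelihood method, with a Benjamini-Hochberg threshold of 0.05, 0.216% were called (5 rows, all higher in oxidized worms), and 0 of the 41 large-subunit rows. With the replicate number as a block the share of all rows called was 0.648% (11 higher and 4 lower), and again 0 large-subunit rows. Every large-subunit row had an edgeR adjusted p of 0.999, the lowest unadjusted p was 0.0953 (rpl-7A), and 0 members had an unadjusted p under 0.05, as 122 rows of the whole table did. DESeq2 and limma voom called 0 of these rows too, and over the whole table they called 9 and 3 rows, all higher in oxidized worms. With so few rows called anywhere, 0 calls among 41 rows does not set the family apart. The oxidized and reduced libraries did not overlap in 3.02% of all tested rows and in 0 of the 41 large-subunit rows.

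Most estimates lay slightly below 0. Of the 41 log2 fold changes (oxidized over reduced), 37 were below 0 and 4 above, with a median of −0.20 and a range of −0.77 to 0.45. Of all tested rows 1254 were below 0 and 1061 above, with a median of −0.05. The standard errors of the large-subunit rows ran from 0.35 to 0.80 (median 0.42), so that the typical error was larger than the typical estimate. Among fits with 1 library left out, the sign of the median turned only without reduced replicate 2. It was then 0.17, with 31 rows above 0 and 8 below among the 39 rows then tested. The median was −0.01 without oxidized replicate 2 and −0.05 without oxidized replicate 5. Without oxidized replicate 1 it was −0.49, with 1 of 40 rows above 0. With both of these libraries left out, a choice made after seeing the data, it was −0.23 with 6 of 39 rows above 0.

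**Figure D2:**
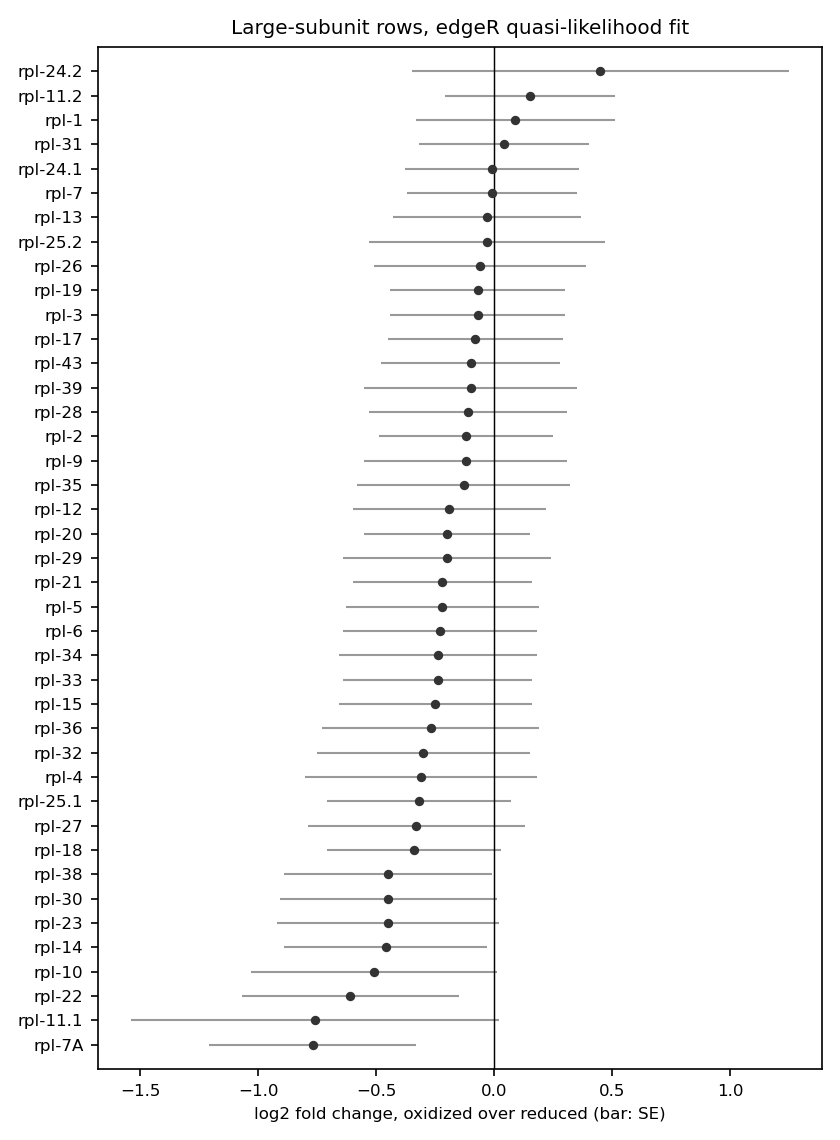
Log2 fold change, oxidized over reduced (horizontal axis), of the 41 tested large-subunit rows from the edgeR fit over all 8 libraries; points are estimates and bars 1 standard error either way. The estimates run from −0.77 (rpl-7A) to 0.45 (rpl-24.2), 37 lie left of 0, and none has an adjusted p under 0.999.

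The row of rpl-17 (Y48G8AL.8, chromosome I, 1156579 to 1157487 on the plus strand, 3 exons) is named for the gene that lends the sensor its promoter. Its protein lies at the exit tunnel of the large subunit. It stood at 463, 211, 289 and 314 CPM in oxidized replicates 1, 2, 3 and 5, against 339, 536, 261 and 220 CPM in the reduced ones. Reduced replicate 2 was the highest and oxidized replicate 2 the lowest library, and the oxidized library was higher in 3 of 4 pairs. The means were 319 ± 105 CPM in oxidized and 339 ± 141 CPM in reduced worms (SD, n = 4 each), and the log2 fold change was −0.08 with an SE of 0.37 (edgeR adjusted p = 0.999). Divided by exon length the rpl-17 row was in the middle of the family, the 23rd of 42, and its rank within single libraries ran from 17 to 29. Its log2 level relative to the family median of the same library was among the steadiest. It had an SD of 0.15 over the 8 libraries, and only rpl-20 had a lower one (0.14). The Pearson r of its log2 CPM with the mean of the other tested rows was 0.86, under the family median of 0.92. The estimate without reduced replicate 2 was 0.25 and without oxidized replicate 2 it was 0.08.

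Levels are compared between genes as CPM per kilobase of exon, here called the level. The tested rows spanned 136-fold in this measure, with a median of 526 CPM per kilobase. The highest was rpl-29, a short basic protein of the subunit surface (B0513.3, chromosome IV, 13882225 to 13882618), which ranked first in each of the 8 libraries. Its level was 3032 ± 2112 in oxidized and 3487 ± 1860 CPM per kilobase in reduced worms (SD, n = 4 each). In CPM it stood at 1361, 306, 914 and 330 in oxidized replicates 1, 2, 3 and 5, against 586, 1379, 1005 and 376 in the reduced ones, and its log2 fold change was −0.20 (SE 0.44).

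The next 4 places went to rpl-38, rpl-24.1, rpl-43 and rpl-14. The rpl-38 row (C06B8.8), of a small protein that in mice is known for a role in axial patterning, had a level of 1466 ± 819 CPM per kilobase in oxidized and 2009 ± 1369 in reduced worms. The rpl-24.1 row (D1007.12), whose protein in yeast reaches across to the small subunit, had 1613 ± 802 in oxidized and 1625 ± 646 in reduced worms. The rpl-43 row (Y48B6A.2), of a zinc-binding protein, had 1358 ± 435 in oxidized and 1455 ± 745 in reduced worms. The rpl-14 row (C04F12.4), of a surface protein, had 1133 ± 693 in oxidized and 1564 ± 1020 in reduced worms. These 4 rows changed places among themselves between libraries, with ranks of 2 to 10 in single libraries, and their means differed by less than the larger SD of their levels. Their log2 fold changes were −0.45 (SE 0.44), −0.01 (SE 0.37), −0.10 (SE 0.38) and −0.46 (SE 0.43), in the same order.

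At the low end were rpl-1, rpl-4, rpl-11.1, rpl-24.2 and rpl-16. The rpl-1 row (Y71F9AL.13), of the mobile L1 stalk beside the exit of the spent transfer RNA, had a level of 211 ± 85.9 CPM per kilobase in oxidized and 200 ± 67 in reduced worms. The rpl-4 row (B0041.4), whose protein reaches into the exit tunnel, had 179 ± 109 in oxidized and 226 ± 171 in reduced worms. Below these, rpl-11.1 had 18.9 ± 17.9 and rpl-24.2 had 29.4 ± 13.2 in oxidized worms, against 31.8 ± 34.5 and 18.7 ± 28.1 in reduced worms. The step between rpl-4 and rpl-11.1 set this end of the order apart: rpl-11.1 and rpl-24.2 took places 40 and 41 in every library. Of the 40 neighbouring pairs in the order of the tested rows, 39 were closer than the larger SD of their levels, so the exact order between neighbours is not resolved.

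**Figure D3:**
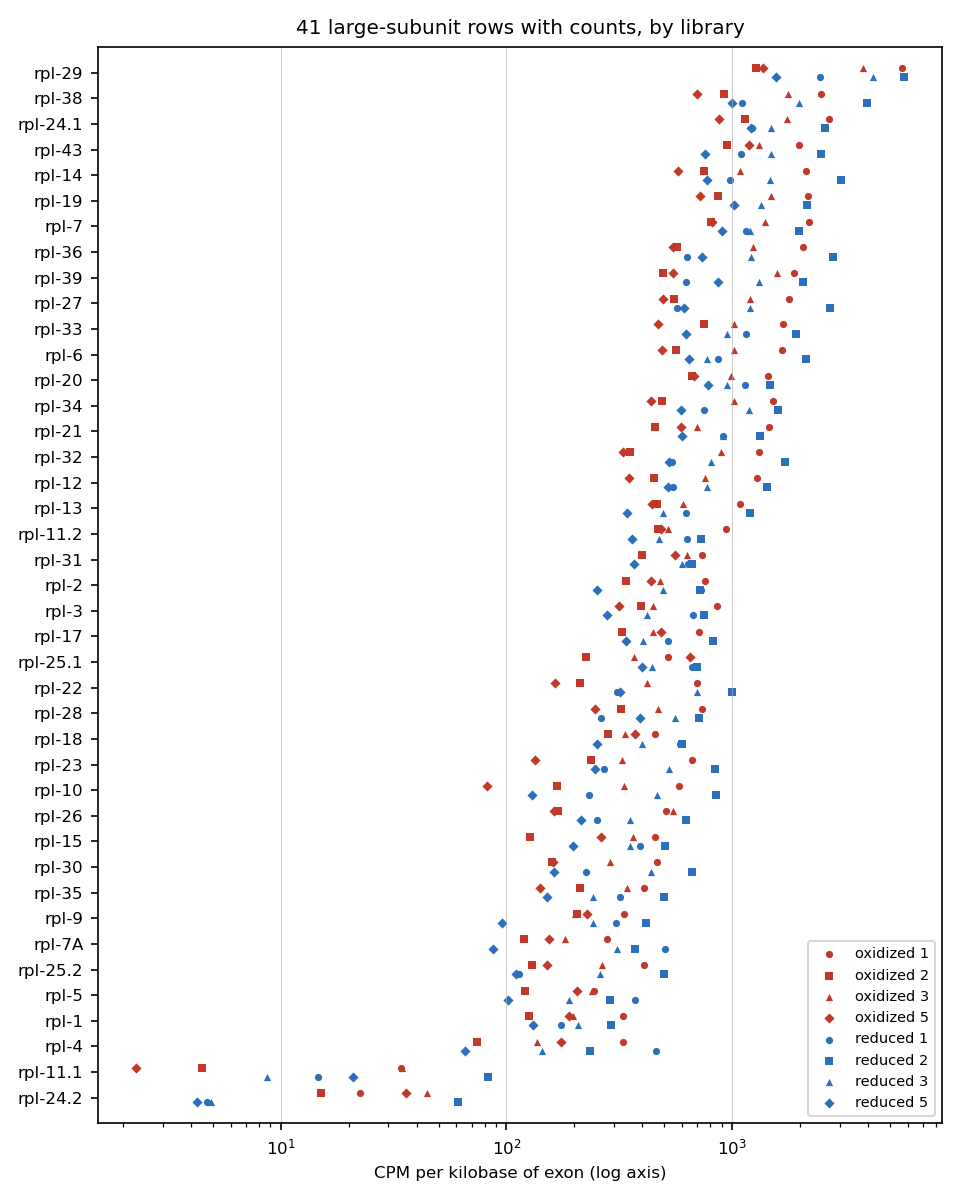
Level of each of the 41 large-subunit rows with counts in CPM per kilobase of exon (horizontal log axis), 1 row per gene from the highest mean (rpl-29) at the top to the lowest (rpl-24.2) at the bottom; red marks are oxidized and blue marks reduced libraries, and the shape gives the replicate. The colours overlap in all 41 rows, and oxidized replicate 1 and reduced replicate 2 lie at the right in most of them.

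Short genes tended to stand higher by this measure, which divides by exon length, so such a relation can come from the division itself. Across the 41 rows the level and the exon length had a Spearman correlation of −0.44, and CPM not divided by length and the exon length one of 0.01. This is a description across genes, which share the same libraries. Undivided, the row with most counts was rpl-7 (F53G12.10, 6908 counts), and 6 of the 10 highest rows were the same by both measures.

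The family moved together from library to library. The log2 CPM of each row was set against the mean of the other 40 over the 8 libraries, as a description without a p, since all points share the same libraries and library sizes. The median Pearson r was 0.92, the range was 0.38 to 0.98, and 11 rows reached 0.95. The highest belonged to rpl-7, with 0.98. Over the 2274 tested rows that are not members the median r with the family was −0.04, with a range of −0.98 to 0.99. Reduced replicate 2 was the highest library in CPM for 28 of the 41 rows and oxidized replicate 1 for 10, and these were the 2 highest libraries for 32 rows.

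Rows of other parts of the translation machinery followed the family to different degrees. The 31 small-subunit rows had a median r of 0.94 with the large-subunit mean, and 4 tested rows of other large-subunit genes had 0.95. The 3 acidic stalk proteins (rla symbols), which recruit translation factors, had 0.78. The 6 elongation factor rows had 0.60, the 5 tested of 31 initiation factor rows 0.74 and the 6 tested of 16 ribosome biogenesis rows 0.76. The 3 tested of 69 mitochondrial ribosome rows had a median of −0.36, with single values from −0.88 to 0.04. Single values also reached below 0 among initiation factor rows (−0.20 to 0.98) and biogenesis rows (−0.50 to 0.85). None of these lists had a called row with edgeR, with or without the block. Over all 2315 tested rows 0.648% were called with the block and 0.216% without it, so 0 calls in such short lists says little. None had a row with an unadjusted p under 0.05 either, as 122 of all tested rows did. Their log2 fold changes were below 0 in 25 of 31 small-subunit rows (median −0.24), 4 of 4 other large-subunit rows (−0.22), 2 of 3 stalk rows (−0.12), 5 of 6 elongation factor rows (−0.27), 4 of 5 initiation factor rows (−0.55), 5 of 6 biogenesis rows (−0.30) and 2 of 3 mitochondrial ribosome rows (−0.07).

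Some large-subunit genes are not in the list of 42. Among these the rpl-36.A row (C09H10.2) held 8882 counts, more than any member, and had a level of 3315 CPM per kilobase and a log2 fold change of −0.32 (SE 0.42). The row of ubq-2, which encodes a ribosomal protein fused to ubiquitin, held 1812 counts with −0.41 (SE 0.47). The rpl-41.2 row held 2244 counts and rpl-41.1 86, and their reads may be divided between near copies. The rpl-37 row held 10 counts and the rpl-42 row 0, so rpl-16 was not alone among ribosomal protein rows without counts.

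Rows also differed in how strongly they followed the family. The slope of a row on the mean of the others, both in log2, ran from 0.39 (rpl-25.1) to 1.99 (rpl-11.1). The rpl-11.1 slope rests on 115 counts in all, with oxidized replicates 2 and 5 under the floor of 3 counts. The rpl-10 row (F10B5.1, chromosome II, 8143881 to 8144671) had a slope of 1.73; its protein joins the subunit last in yeast, beside the catalytic centre. It stood at 405, 117, 231 and 57 CPM in oxidized replicates 1, 2, 3 and 5, against 162, 593, 325 and 90.6 CPM in the reduced ones. Oxidized replicate 5 was the lowest and reduced replicate 2 the highest, the groups overlapped, and the log2 fold change was −0.51 (SE 0.52, edgeR adjusted p = 0.999).

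The order of the family was not the same in all libraries. Spearman correlations of the levels between libraries ran from 0.75 (reduced replicates 1 and 2) to 0.97. Reduced replicate 1 and oxidized replicate 5 stood apart: their correlations with other libraries were 0.75 to 0.90, while the other 6 libraries had 0.92 to 0.97 with each other. For each row the log2 level relative to the family median of a library was set against its own mean over the 8 libraries, and this deviation is called its place. The SD of the places over the 41 rows was 0.64 in oxidized replicate 5 and 0.57 in reduced replicate 1, and 0.23 to 0.44 in the others. Places and exon lengths had a Spearman correlation of 0.35 in oxidized replicate 5 and 0.52 in reduced replicate 1. In the rest it ran from −0.45 (reduced replicate 3) to 0.12 (oxidized replicate 2). Because a place is set against the row's own mean, upward shifts in some libraries bring downward shifts in others. The correlations in the rest are thus not separate results, and the part of length in the shift was not tested.

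**Figure D4:**
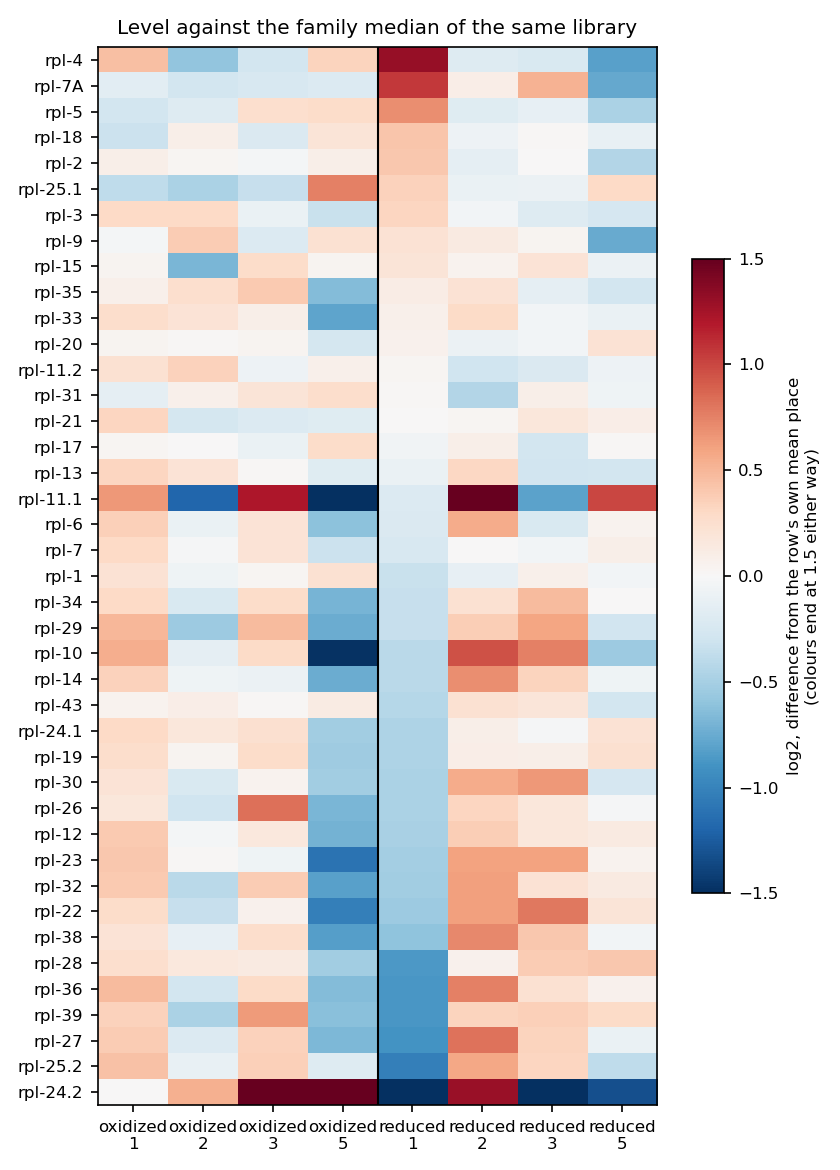
Place of each tested row in each library: log2 level against the family median of that library, minus the row's own mean over the 8 libraries (colour scale, red above and blue below, ending at 1.5 either way). Rows run down by their place in reduced replicate 1, oxidized libraries are left of the black line and reduced libraries right; rpl-4, rpl-7A and rpl-5 are above their mean in reduced replicate 1, and rpl-10 is below it in oxidized replicate 5.

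Apart from rpl-24.2, the rows least like the family were rpl-25.1 (r 0.45), rpl-4 (0.60) and rpl-5 (0.65). The rpl-4 row (chromosome I, 4645662 to 4646963) stood at 369, 83.1, 153 and 195 CPM in oxidized replicates 1, 2, 3 and 5, against 516, 263, 160 and 73.3 CPM in the reduced ones. Its highest library was reduced replicate 1, where its place was 1.31, and not reduced replicate 2, where its place was −0.19. Its log2 fold change was −0.31 (SE 0.49), and without reduced replicate 1 it was 0.31.

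The rpl-5 row (F54C9.5, chromosome II, 8569927 to 8571100) showed the same library high. Its protein binds the 5S ribosomal RNA together with the product of rpl-11. It stood at 251, 124, 247 and 212 CPM in oxidized replicates 1, 2, 3 and 5, against 380, 297, 194 and 104 CPM in the reduced ones. The place of rpl-5 in reduced replicate 1 was 0.70, the groups overlapped, and the log2 fold change was −0.22 (SE 0.41).

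The largest estimate below 0 was that of rpl-7A (Y24D9A.4, chromosome IV, 4389143 to 4390590 on the minus strand, 5 exons), a surface protein of the subunit. The row stood at 238, 102, 155 and 132 CPM in oxidized replicates 1, 2, 3 and 5, against 430, 317, 265 and 74.5 CPM in the reduced ones. Reduced replicates 1, 2 and 3 were each above every oxidized library, and reduced replicate 5 was below every one, so the groups overlapped. The means were 157 ± 58.4 CPM in oxidized and 272 ± 148 CPM in reduced worms (SD, n = 4 each). The log2 fold change was −0.77, with an SE of 0.44 and an edgeR adjusted p = 0.999. With 1 library left out it ran from −1.07 (without oxidized replicate 1) to −0.46 (without reduced replicate 1, the library where the place of rpl-7A was 1.06), and without reduced replicate 5 it was −1.06.

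Among rows of genes that overlap a member, the one with most counts lies in the rpl-7A locus. The non-coding gene Y24D9A.11 (chromosome IV, 4389808 to 4389957), on the opposite strand, lies within this locus and shares 67 of its 150 bases with an rpl-7A exon. Of its bases 70 lie opposite the small nucleolar RNA gene Y24D9A.10, whose own row held 0 counts in all 8 libraries. The Y24D9A.11 row held 183535 counts, more than all 42 large-subunit rows together. This was 1224 counts per exon base against 1.6 for rpl-7A, 764-fold more. Which strand's reads the Y24D9A.11 row holds was not settled. This row stood at 21637, 30128, 23648 and 38828 CPM in oxidized replicates 1, 2, 3 and 5, against 56173, 18123, 30922 and 23833 CPM in the reduced ones. Both rows were highest in reduced replicate 1. The place of rpl-7A was −0.16, −0.28, −0.24 and −0.21 in oxidized replicates 1, 2, 3 and 5. In the reduced ones it was 1.06, 0.1, 0.52 and −0.77. The r of Y24D9A.11 with the large-subunit mean was −0.51 and its log2 fold change −0.18 (SE 0.34, edgeR adjusted p = 0.999). Its part in the value of rpl-7A was not tested.

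The other 6 rows with exon bases opposite another gene share fewer. The rpl-2 row (B0250.1, of a protein close to the catalytic centre) shares 32 bases with dhcr-7, whose row held 6.1 counts per base against 3.4 for rpl-2. The rpl-39 row (C26F1.9, of a small protein of the exit tunnel) shares 18 with grl-10, at 14.6 counts per base against 7.75 for rpl-39. The rpl-28 row (R11D1.8) shares 20 with R11D1.13, which held 4 counts, and the rpl-32 row (T24B8.1) shares 8 with chmp-7, at 5.36 counts per base against 5.44. The rpl-14 and rpl-22 genes share 3 and 4 bases with C04F12.5 and C27A2.12. Estimates of rows outside rpl-7A with such an overlap ran from −0.61 (rpl-22) to −0.10 (rpl-39). Inside introns of 8 large-subunit genes the annotation places 12 small nucleolar RNA genes on the same strand; 11 have a row, and these held 0 counts. Non-coding genes on the opposite strand lie in rpl-6 and rpl-7 outside the exons, and R151.16 and F53G12.17, as they are called, held 36 and 21 counts.

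The rpl-22 row (C27A2.2, chromosome II, 5055616 to 5056214), of an RNA-binding protein without which mice can live, had the next largest estimate below 0 after rpl-7A and rpl-11.1. It stood at 360, 109, 214 and 84 CPM in oxidized replicates 1, 2, 3 and 5, against 158, 511, 358 and 163 CPM in the reduced ones. The oxidized library was higher in 1 of 4 pairs, and the place of rpl-22 was lowest in oxidized replicate 5 (−1.03). The log2 fold change was −0.61 (SE 0.46, edgeR adjusted p = 0.999). With 1 library left out it ran from −1.14 (without oxidized replicate 1) to −0.19 (without reduced replicate 2).

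The 4 estimates above 0 were those of rpl-24.2, with 0.45 (SE 0.80), rpl-11.2, with 0.15 (SE 0.36), rpl-1, with 0.09 (SE 0.42), and rpl-31, with 0.04 (SE 0.36). The rpl-31 row (W09C5.6), of a protein at the mouth of the exit tunnel, stood at 317, 172, 273 and 240 CPM in oxidized replicates 1, 2, 3 and 5, against 275, 286, 258 and 159 CPM in the reduced ones. Its oxidized library was higher in 3 of 4 pairs, and the slope of rpl-31 on the family was low, at 0.45. The rpl-1 row stood at 234, 88.9, 140 and 135 CPM in oxidized replicates 1, 2, 3 and 5, against 124, 206, 147 and 93.1 CPM in the reduced ones. Both rows overlapped between the groups.

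In 3 cases a pair of genes carries the same protein number, and the pairs differed in how unequal they were. Reads of close copies can be divided between them or lost in counting, and whether this happened here was not tested. For rpl-11, whose protein binds the 5S ribosomal RNA, the row of rpl-11.2 (F07D10.1, chromosome X, 2241738 to 2242618) held 2743 counts and that of rpl-11.1 (T22F3.4, chromosome V, 3585312 to 3586064) 115. The rpl-11.1 row had 24, 2, 14 and 1 counts in oxidized replicates 1, 2, 3 and 5, against 7, 52, 4 and 11 counts in the reduced ones. Oxidized replicates 2 and 5 were under the floor of 3 counts, and reduced replicate 2 held most. The log2 fold change of rpl-11.1 was −0.76 (SE 0.78), an error as large as the estimate. The rpl-11.2 row stood at 687, 344, 379 and 354 CPM in oxidized replicates 1, 2, 3 and 5, against 461, 529, 348 and 264 CPM in the reduced ones, with oxidized replicate 1 far above the other oxidized libraries.

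For rpl-24 the inequality was larger. The row of rpl-24.1 (chromosome I, 4585115 to 4586176) held 5822 counts and that of rpl-24.2 (C03D6.8, chromosome I, 9669415 to 9670098) 90. The rpl-24.2 product resembles a yeast protein that holds the place of the ribosomal one while the subunit is made. The rpl-24.2 row had 14, 6, 16 and 14 counts in oxidized replicates 1, 2, 3 and 5, against 2, 34, 2 and 2 counts in the reduced ones. In CPM this was 13.1, 8.75, 25.8 and 21 in the oxidized libraries, against 2.75, 35.5, 2.85 and 2.48 in the reduced ones. Reduced replicates 1, 3 and 5 were under the floor and below every oxidized library, and reduced replicate 2 was above every one. The log2 fold change was 0.45 (SE 0.80, edgeR adjusted p = 0.999). It was 1.17 with limma voom, 0.71 with the replicate block, 0.02 without both libraries of replicate 5 and 0.14 to 0.66 with 1 library left out. Without reduced replicate 2 the row did not pass the filter on low counts. The r of rpl-24.2 with the family, 0.38, rests on these few counts. The rpl-24.1 row stood at 1458, 620, 956 and 476 CPM in oxidized replicates 1, 2, 3 and 5, against 666, 1400, 810 and 659 CPM in the reduced ones.

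For rpl-25 the 2 rows were closer in level but did not move together. Their proteins sit at the exit of the tunnel, where in yeast and mammals the counterpart serves as a dock for factors that meet the new chain. The row of rpl-25.1 (F55D10.2, chromosome X, 4715178 to 4715796) held 1554 counts and that of rpl-25.2 (F52B5.6, chromosome I, 8329062 to 8329647) 802. The rpl-25.1 row stood at 256, 111, 181 and 321 CPM in oxidized replicates 1, 2, 3 and 5, against 327, 344, 217 and 196 CPM in the reduced ones. The rpl-25.2 row stood at 202, 64.2, 131 and 75 CPM in the same oxidized libraries, against 56.3, 246, 128 and 54.6 CPM in the reduced ones. The oxidized library was higher in 1 of 4 pairs for rpl-25.1 and in 3 of 4 for rpl-25.2.

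The count ratio of rpl-25.1 to rpl-25.2 set the libraries apart more than the groups. It was 1.27, 1.73, 1.38 and 4.28 in oxidized replicates 1, 2, 3 and 5, against 5.8, 1.4, 1.69 and 3.59 in the reduced ones. The means were 2.16 ± 1.42 in oxidized and 3.12 ± 2.04 in reduced worms (SD, n = 4 each). Reduced replicate 1 and oxidized replicate 5, the libraries whose order stood apart, had the highest ratios, followed by reduced replicate 5. The exons of the pair are of nearly the same length, 494 and 495 bases. The log2 fold changes were −0.32 (SE 0.39) for rpl-25.1 and −0.03 (SE 0.50) for rpl-25.2.

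**Figure D5:**
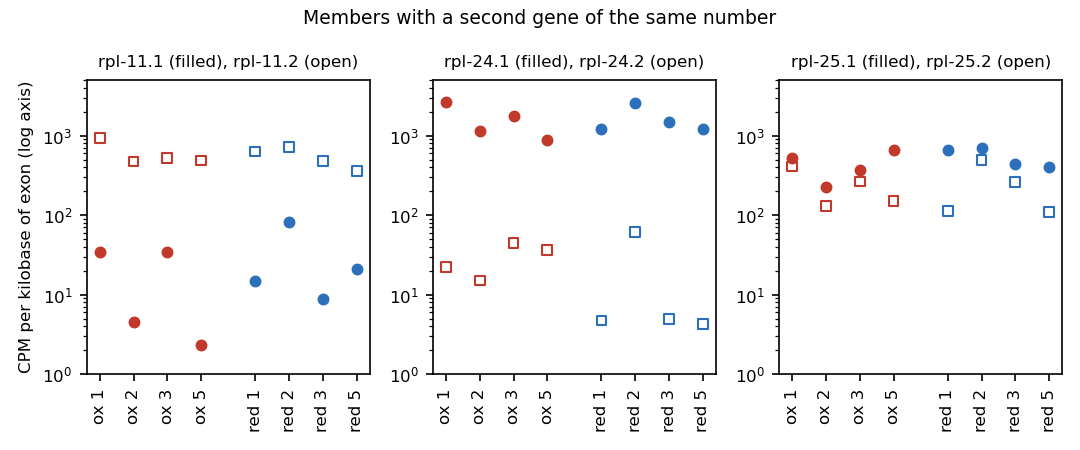
Level in CPM per kilobase of exon (vertical log axis) of the 3 gene pairs that share a protein number, with oxidized libraries in red at left and reduced libraries in blue at right in each panel; filled circles are the first and open squares the second gene of the pair. The rpl-11 and rpl-24 pairs are far apart in all 8 libraries, while the rpl-25 pair is close in oxidized replicate 1 (count ratio 1.27) and apart in reduced replicate 1 (5.8).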

How the data were processed

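Whole L2 larvae gave 8 strand-specific libraries (100 ng of total RNA depleted of ribosomal RNA, 15 PCR cycles, paired ends of 50 nt, per the labels' protocols), although the molecule label names polyA RNA. The authors deposited raw counts per row, with no normalization recorded. Bowtie2 2.2.1, TopHat2 2.0.13, Cuffdiff 2.1.1, Cufflinks and FastQC 0.11.3 were used per the submitters' processing notes. The counting tool's settings, build and annotation are not stated there. Of 45461 rows, 32245 held no count and 0 named something other than a gene. The 2 columns that match no sample were left out. Names were matched to Ensembl WBcel235, which gave 44380 rows 1 gene; the 1081 others held 0.377% of counts.

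All rows passing filterByExpr (2315) were tested with edgeR 4.0.16 in R 4.3.3 (TMM scaling, quasi-likelihood, robust, legacy = FALSE), and p was adjusted over all of them by the Benjamini-Hochberg method at a threshold of 0.05. The common dispersion, 0.339, equals a coefficient of variation of 58.3%. Correlations used log2(CPM + 0.5), and levels used the union of exons. The fit was tested on simulated counts (5 draws of 2315 rows, 200 of them changed). It called 13.8% of rows changed 2-fold, 48.2% of those changed 4-fold and 75.7% of those changed 8-fold. Of unchanged rows it called 0.454%. Most simulated 2-fold changes were thus not called. The simulated rows were drawn independently and over all tested rows, while the large-subunit rows moved together. Rates for the large-subunit rows were not measured. Alternatives were RLE scaling, library totals, no filter, legacy = TRUE, DESeq2 1.42.0, limma 3.58.1 voom, the replicate block, each library left out, replicate 5 left out or exchanged, and, added after seeing the data, oxidized replicate 1 and reduced replicate 2 left out.

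Groups follow the redox characteristic. Libraries of one number have the same date in the title, and the pairing was taken from this, though within June28 only the number pairs them; their deviations from the group means correlated at 0.058, −0.16, 0.13 and 0.3 for replicates 1, 2, 3 and 5, and other pairs of libraries at −0.46 to 0.41. The labels call the replicates biological, and the p-values measure the spread between them.

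The members, lists and tests were chosen with earlier results of these data known. Described in full were rpl-17, the 4 most positive and 4 most negative estimates, the 5 highest and 5 lowest levels, the 3 pairs that share a number, the 4 rows least like the family, and rows with an exonic gene opposite; rpl-7, rpl-20 and rpl-36.A were named after their values were seen. No sequences were printed.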

Additional observations from a re-analysis of the deposited data

Results flagged for a closer look

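Of 54 groups of 4 values looked at (the CPM of the named rows that were tested and of Y24D9A.11, the shares of both subunits, their ratio and that of the rpl-25 pair, in oxidized and in reduced worms), 4 held 1 library far from the other 3. Chance would give about 2.7 if the groups were independent and not chosen by their values. Neither holds here, since the rows moved together between libraries and some were named for extreme values. The number of flags is therefore not judged against chance. In the rpl-11.2 row oxidized replicate 1 stood at 687 CPM and the other oxidized libraries between 344 and 379. In the rpl-11.1 row reduced replicate 2 stood at 54.3 CPM and the other reduced libraries between 5.7 and 13.7. In the rpl-24.2 row reduced replicate 2 stood at 35.5 CPM and the other reduced libraries between 2.48 and 2.85, which is 2 counts each. These 2 libraries, oxidized replicate 1 and reduced replicate 2, are those with the highest shares of large-subunit counts, 2.44% in oxidized replicate 1 and 3.03% in reduced replicate 2. In the count ratio of rpl-25.1 to rpl-25.2, oxidized replicate 5 stood at 4.28 and the other oxidized libraries between 1.27 and 1.73.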

How the results depend on the processing

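The count of large-subunit rows called was 0 in each direction under all 18 alternatives, with a lowest adjusted p of 0.571 (without reduced replicate 5). Over all rows, the 5 higher calls became 9 without a filter and with DESeq2, 3 with legacy = TRUE and with voom, 0 with the labels of replicate 5 exchanged, 2 without oxidized replicate 1 and reduced replicate 2, and 1 to 12 with 1 library left out. The 0 lower calls became 1 without a filter and 0 to 3 with 1 library left out. With the replicate block, which follows the pairing, 11 rows were higher and 4 lower, and no call among large-subunit rows changed. The median log2 fold change of these rows was −0.49 to 0.17 with 1 library left out and −0.23 to −0.14 otherwise, and the difference in their share of counts (percentage points, oxidized minus reduced) −0.569 to 0.205. By undivided CPM 6 of the 10 highest rows stayed among the 10 highest. Of 391 values of the named rows, 52 had the other sign, and rpl-7A, rpl-11.1, rpl-22 and rpl-25.1 kept theirs in every fit that tested them. The cause of these turns was not tested.

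Without both libraries of replicate 5 the log2 fold changes that turned were −0.01 (rpl-1), 0.09 (rpl-24.1), 0.01 (rpl-28) and −0.08 (rpl-31). With its labels exchanged they were −0.12 (rpl-1), −0.01 (rpl-11.2), 0.14 (rpl-24.1), −0.45 (rpl-24.2), 0.10 (rpl-28), −0.20 (rpl-31) and 0.08 (rpl-39). Without a filter rpl-24.1 had 0.05 and rpl-25.2 0.02. The rpl-25.2 row had 0.11 with voom, 0.07 with the replicate block and 0.18 without oxidized replicate 1 and reduced replicate 2, where rpl-31 had −0.01 and rpl-43 0.05. With 1 library left out the ranges were −0.24 to 0.34 (rpl-1), −0.39 to 0.06 (rpl-2), −0.82 to 0.31 (rpl-4), −0.45 to 0.07 (rpl-5), −1.14 to 0.12 (rpl-10), −0.16 to 0.33 (rpl-11.2), −0.97 to 0.10 (rpl-14), −0.33 to 0.25 (rpl-17), −0.37 to 0.32 (rpl-24.1), −0.47 to 0.62 (rpl-25.2), −0.49 to 0.17 (rpl-28), −0.70 to 0.17 (rpl-29), −0.10 to 0.20 (rpl-31), −0.79 to 0.24 (rpl-32), −0.84 to 0.13 (rpl-38), −0.49 to 0.30 (rpl-39) and −0.34 to 0.31 (rpl-43). For rpl-11.1 and rpl-25.1, which kept their sign, they were −1.07 to −0.44 and −0.57 to −0.09. For 14 of the 17 rows whose sign turned the highest value came without reduced replicate 2.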
